A study of Mus musculus with 6 samples.

Results

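The genes described here are 10 that are used to mark stem cells or tumour-propagating cells in other tissues: Prom1, Thy1, Ly6a, Alcam and Procr, which encode cell surface proteins, Klf4, Pou5f1, Nanog and Bmi1, which encode nuclear factors, and Nes, which encodes an intermediate filament protein. They were taken by name, and a gene counted as measured where at least 1 probe set of the array was annotated to that symbol and no other. This gave 17 probe sets for 9 of the 10 genes, out of 45037 probe sets and 18193 genes measured. Ly6a was not analysed here.

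The cells came from neuroendocrine tumours that arise in a mouse model of small cell lung cancer (SCLC). Both fractions carried the same tumour genotype, the triple knockout of Rb, p53 and p130 induced by an adenovirus that delivers Cre recombinase, on a mixed C57BL/6;129Sv/J background, and no animal was treated. Primary tumours were taken 6 to 7 months after infection and dissociated, and their cells were stained for CD24, CD44 and EpCAM. Sorting then gave a fraction of tumour-propagating cells (TPCs) and a non-TPC fraction. Mice 1127, 920 and 0107 each gave 1 array per fraction, so 3 TPC arrays were compared with 3 non-TPC arrays. The sources used here give neither the promoter that drives Cre nor the gates of the sort. In every mouse the neuroendocrine markers fixed for the labelled cell type were bright in both fractions: all 9 measured markers lay above the median of the table, and their mean signal was 10.45 to 10.88 in TPCs and 10.21 to 10.49 in non-TPCs. Values are RMA signals on a log2 scale, and a difference is TPC minus non-TPC, so that a negative difference means less signal in TPCs.

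None of the 10 genes encodes a protein stained for the sort. Stem cell markers of this kind fall into classes that work in different ways. Pou5f1, Nanog and Klf4 are transcription factors of the network that keeps embryonic stem cells pluripotent, and Klf4 is also active in differentiated epithelium. Bmi1 is a subunit of Polycomb repressive complex 1 (PRC1), which silences genes through chromatin and sustains self-renewal of blood and neural stem cells. Prom1, Thy1, Alcam and Procr are proteins by which stem cells are sorted, but each is also made by ordinary cells of the lung, such as endothelium, fibroblasts or epithelium.

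The position of each probe set relative to the table median, 6.02, was read first. Of the 17 probe sets, 13 had a mean over the 6 arrays above it, against 50.3% of all probe sets. By the brightest probe set, 6 of the 9 genes lay above it, namely Alcam, Bmi1, Klf4, Prom1, Nes and Procr, against 63.2% of all genes, a share close to that of the members. The brightest probe sets of Alcam (mean 11.71, percentile 98.2 of all probe sets), Bmi1 (11.53, percentile 97.9), Klf4 (10.41, percentile 94.9) and Prom1 (9.58, percentile 91.2) stood far above the median and exceeded the median of their own array in all 6 arrays. Nes followed at 7.24, also above in 6 arrays. Procr, at 6.19, was just above the table median and exceeded its array's median in 3 arrays. Thy1, at 5.89, was just below and exceeded it in 1 array. Pou5f1, at 5.01 (percentile 32.2), and Nanog, at 3.55 (percentile 5.86), were below in all 6 arrays. Probe sets differ in how strongly they bind, so these positions do not rank the transcripts by abundance.

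**Figure D1:**
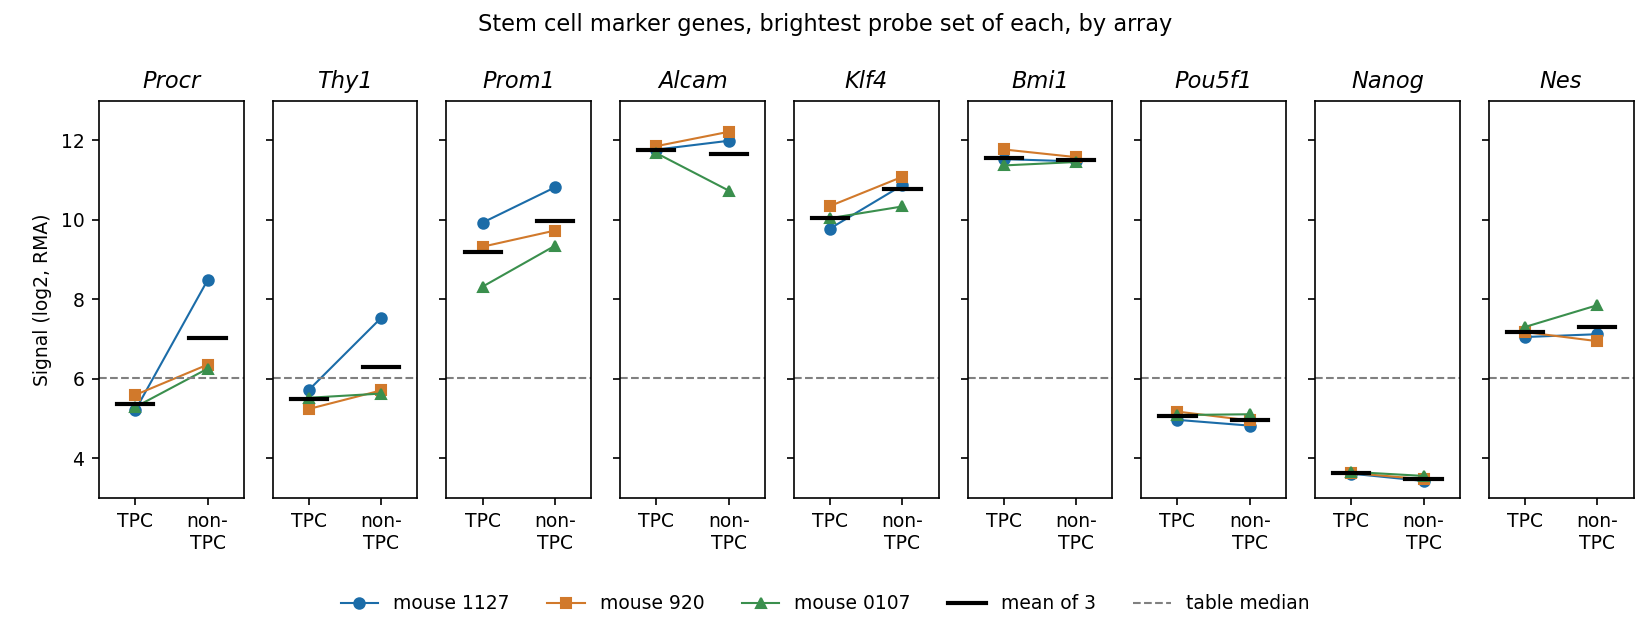
Signal (log2, RMA) of the brightest probe set of 9 stem cell marker genes in TPCs and non-TPCs, with a line joining the arrays of a mouse, black bars for the mean of 3 and a dashed line at the table median of 6.02. Procr, Thy1 and Prom1 are highest in the non-TPC array of mouse 1127. The Prom1 and Klf4 lines go up towards non-TPCs in each mouse, and Pou5f1 and Nanog lie below the median throughout.

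Among the surface proteins, Procr had the largest difference of the 9 genes. It encodes the endothelial protein C receptor, which marks blood and mammary stem cells and is abundant on endothelium. Its signal was 5.20, 5.59 and 5.28 in TPCs of mice 1127, 920 and 0107, and 8.48, 6.35 and 6.25 in non-TPCs of the same mice. All 3 TPC arrays were below all 3 non-TPC arrays, and the non-TPC array of mouse 1127 was far above the others. TPCs averaged 5.36 ± 0.20 and non-TPCs 7.03 ± 1.26 (SD, n = 3), a difference of -1.67 (SE 0.58, a 3.19-fold difference), which did not pass the test over all genes (limma adjusted p = 0.663, and 0.400 when the mouse entered as a replicate block). Within mice 1127, 920 and 0107 it differed by -3.28, -0.76 and -0.97. In bulk RNA of a sorted fraction, fewer cells of a type and less RNA per cell cannot be told apart. Leaving out mouse 1127's non-TPC array gave -0.94 (limma adjusted p = 0.396), and leaving out both arrays of that mouse gave -0.87.

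Thy1 encodes a small lipid-anchored protein of the immunoglobulin superfamily that is found on T cells, neurons and fibroblasts and is used to mark stem cells of blood and liver. It stood at 5.72, 5.24 and 5.52 in TPCs of mice 1127, 920 and 0107, and at 7.53, 5.70 and 5.62 in the non-TPCs. Only the non-TPC array of mouse 1127 was above the table median, while the other 5 arrays lay between 5.24 and 5.72. The difference was -0.80 (SE 0.51, limma adjusted p = 0.877), made up of -1.82, -0.47 and -0.11 in the same order of mice. Leaving out mouse 1127's non-TPC array gave -0.17, and leaving out both arrays of that mouse gave -0.29.

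Prom1 encodes prominin 1, the pentaspan membrane protein known as CD133 that marks neural and tumour-propagating cells and also lies on the apical membrane of ordinary epithelium. Its signal was 9.93, 9.32 and 8.32 in TPCs of mice 1127, 920 and 0107, and 10.82, 9.73 and 9.35 in non-TPCs. The fractions overlapped, and in both of them mouse 1127 was highest and mouse 0107 lowest. Within a mouse the TPC array was the lower one each time, with differences of -0.89, -0.41 and -1.03. TPCs averaged 9.19 ± 0.81 and non-TPCs 9.97 ± 0.76 (SD, n = 3), a difference of -0.78 (95% interval -2.00 to 0.45, limma adjusted p = 0.88). The replicate block brought the SE to 0.17, against 0.51 in the fit without it, and the limma adjusted p to 0.269, which did not pass either. Leaving out mouse 0107's TPC array gave -0.34 and leaving out mouse 1127's non-TPC array gave -0.35, where the partner array of that mouse stayed in. Without mouse 1127's TPC array it was -1.15 and without mouse 0107's non-TPC array -1.08. Leaving out both arrays of a mouse gave -0.72, -0.96 and -0.65 for mice 1127, 920 and 0107.

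Alcam encodes an adhesion molecule of the immunoglobulin superfamily, known as CD166, that binds CD6 and is used to mark mesenchymal and intestinal stem cells. The brightest of its 5 probe sets was at 11.77, 11.86 and 11.68 in TPCs of mice 1127, 920 and 0107, and at 11.99, 12.22 and 10.74 in non-TPCs. In this probe set TPCs of the 3 mice were alike, whereas in the dimmest set they stood at 6.11, 7.77 and 6.14. The non-TPC array of mouse 0107 was the lowest of the 6 arrays in 5 of 5 probe sets. The mean difference, 0.12 (95% interval -0.78 to 1.02, limma adjusted p = 0.971), therefore joined opposite signs, -0.22 and -0.36 in mice 1127 and 920 against 0.94 in mouse 0107, and leaving out mouse 0107's non-TPC array turned it to -0.34. The other 4 probe sets differed by 0.11 to 0.50 on average, and in mouse 0107 all 5 differed by 0.80 to 0.97. In the other mice 3 of the 5 were below 0 in both, while 1 was at 0.16 in mouse 1127 and 1, the dimmest, at 0.86 in mouse 920. Their correlations with one another over the 6 arrays, which share the same libraries, were between 0.51 and 0.99.

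Among the nuclear factors, Klf4 had the largest difference. It encodes a zinc finger transcription factor, one of the factors that reprogramme somatic cells to pluripotency, and one that restrains the growth of many epithelia. Its brighter probe set was at 9.78, 10.35 and 10.04 in TPCs of mice 1127, 920 and 0107, and at 10.87, 11.09 and 10.34 in non-TPCs. The highest TPC array, of mouse 920, and the lowest non-TPC array, of mouse 0107, nearly coincided, so the fractions overlapped by very little. TPCs averaged 10.06 ± 0.28 and non-TPCs 10.77 ± 0.39 (SD, n = 3), a difference of -0.71 (SE 0.24, 95% interval -1.29 to -0.13, a 1.63-fold difference) that did not pass over all genes (limma adjusted p = 0.655, and 0.350 with the replicate block). Within mice 1127, 920 and 0107 the difference was -1.09, -0.74 and -0.30. The second Klf4 probe set, with a mean of 7.84, gave -1.14, -0.65 and -0.04 in the same mice, and its mean difference was -0.61.

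Bmi1 was bright and nearly level. Its brighter probe set was at 11.53, 11.77 and 11.37 in TPCs of mice 1127, 920 and 0107, and at 11.47, 11.58 and 11.46 in non-TPCs. The 6 arrays spanned 0.40, where the median gene spanned 0.64. The difference was 0.06 (SE 0.15, 95% interval -0.30 to 0.41, limma adjusted p = 0.963), and within the mice it was 0.06, 0.19 and -0.09. The second probe set had a mean difference of 0.12 and the same signs in each mouse.

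Pou5f1 and Nanog, the core pluripotency factors, were dim in every array. Pou5f1, which encodes OCT4, was at 4.96, 5.17 and 5.08 in TPCs of mice 1127, 920 and 0107, and at 4.82, 4.95 and 5.10 in non-TPCs (difference 0.12, 95% interval -0.21 to 0.45, limma adjusted p = 0.92). Leaving out 1 array moved this difference to between 0.047, without mouse 1127's non-TPC array, and 0.19, without mouse 0107's non-TPC array. Nanog was at 3.61, 3.62 and 3.65 in TPCs and at 3.42, 3.47 and 3.55 in non-TPCs. All 3 Nanog values of TPCs were above all 3 of non-TPCs, but the difference was 0.15 (SE 0.12, limma adjusted p = 0.896) on a probe set dimmer than nearly all others. The table analysed here holds no detection call, so it does not show whether Pou5f1 or Nanog was expressed.

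Nes encodes nestin, an intermediate filament protein of neural progenitors that assembles with vimentin. The brightest of its 3 probe sets was at 7.05, 7.17 and 7.30 in TPCs of mice 1127, 920 and 0107, and at 7.12, 6.94 and 7.85 in non-TPCs. The non-TPC array of mouse 0107 was the highest of the 6 in 3 of 3 probe sets. In the dimmest set that array stood at 4.38 beside 4.30 in TPCs of mouse 0107. In the brightest set the other arrays lay between 6.94 and 7.30. The mean difference was -0.13 (95% interval -0.73 to 0.47, limma adjusted p = 0.945), with -0.07, 0.23 and -0.55 within the mice, and leaving out mouse 0107's non-TPC array turned it to 0.14. The second probe set (mean 6.13) differed by -0.21 and the third (mean 4.15), which lay below the table median, by 0.14.

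**Figure D2:**
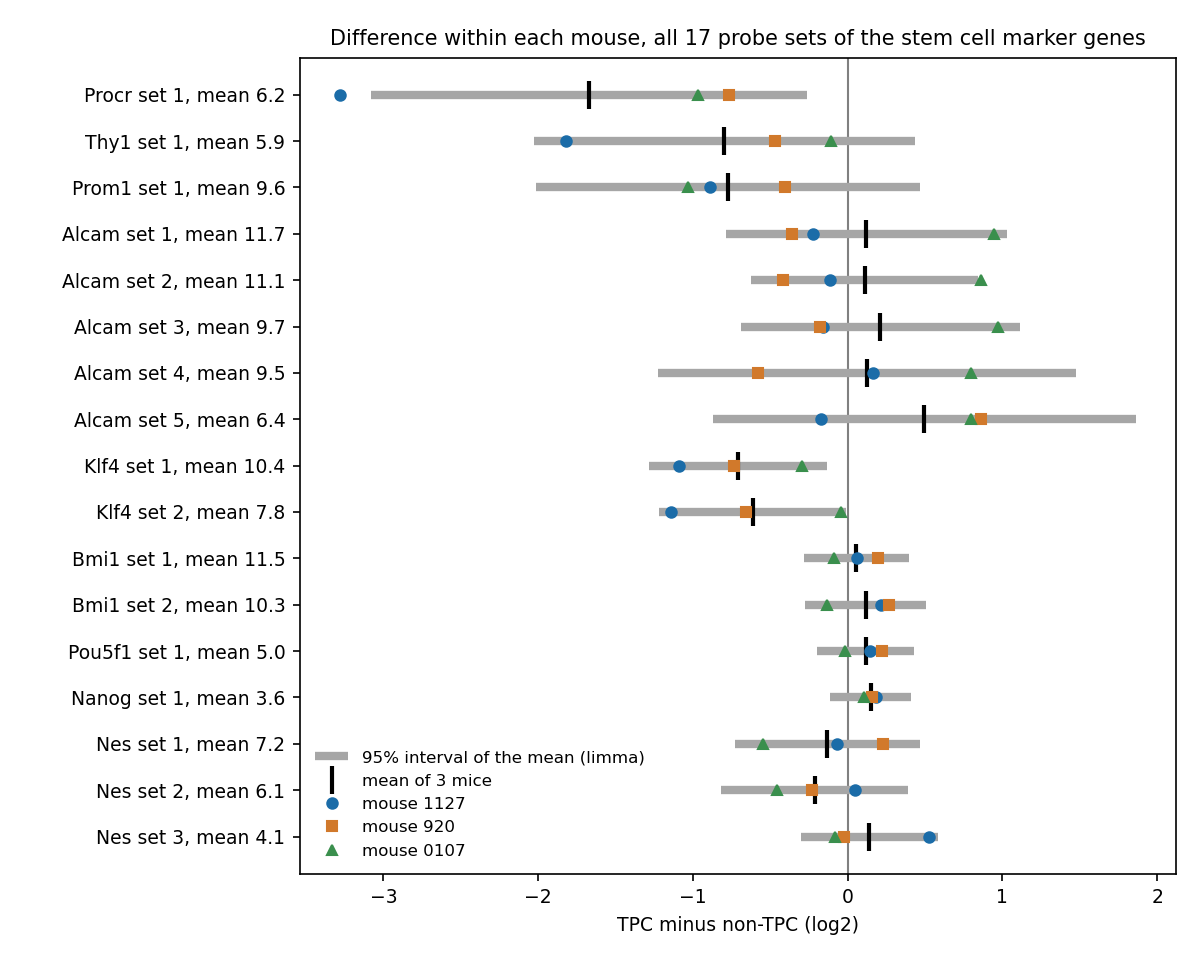
TPC minus non-TPC (log2) within each mouse for all 17 probe sets, with the mean of 3 mice as a black tick and its 95% limma interval, fitted over all probe sets, as a grey bar; labels give the mean signal over 6 arrays. The intervals of Procr and of both Klf4 sets lie below 0 before adjustment, all 5 Alcam sets are above 0 in mouse 0107 while their signs vary in the other mice, and Bmi1, Pou5f1 and Nanog stay near 0.

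Over all 9 genes, 0 passed limma at an adjusted p under 0.05, where 0.0605% of all genes were called, each of them lower in TPCs. With the replicate block 0 passed as well, against 0.0715% of all genes. Of the 17 probe sets 0 passed in the fit over all probe sets, in which 0.0244% were called, and 0 passed with the replicate block, in which 0.0200% were called. At an unadjusted p under 0.05, 2 of the 9 genes differed, Klf4 and Procr, against 6.48% of all genes, and with the replicate block 3 did, Prom1 being the third, against 9.85% of all genes in that fit. Klf4, Procr, Prom1 and Thy1 were lower in TPCs of all 3 mice, which makes 4 of 9 genes against 13.8% of all genes. Nanog alone was higher in TPCs of all 3 mice, 1 of 9 against 19.7%. The fractions did not overlap for Procr, 1 of 9 against 5.91% of genes with TPCs below, and for Nanog, 1 of 9 against 6.71% with TPCs above. The median difference of the 9 was -0.13, against 0.04 over all genes, and within mice 1127, 920 and 0107 it was -0.22, -0.36 and -0.11.

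**Figure D3:**
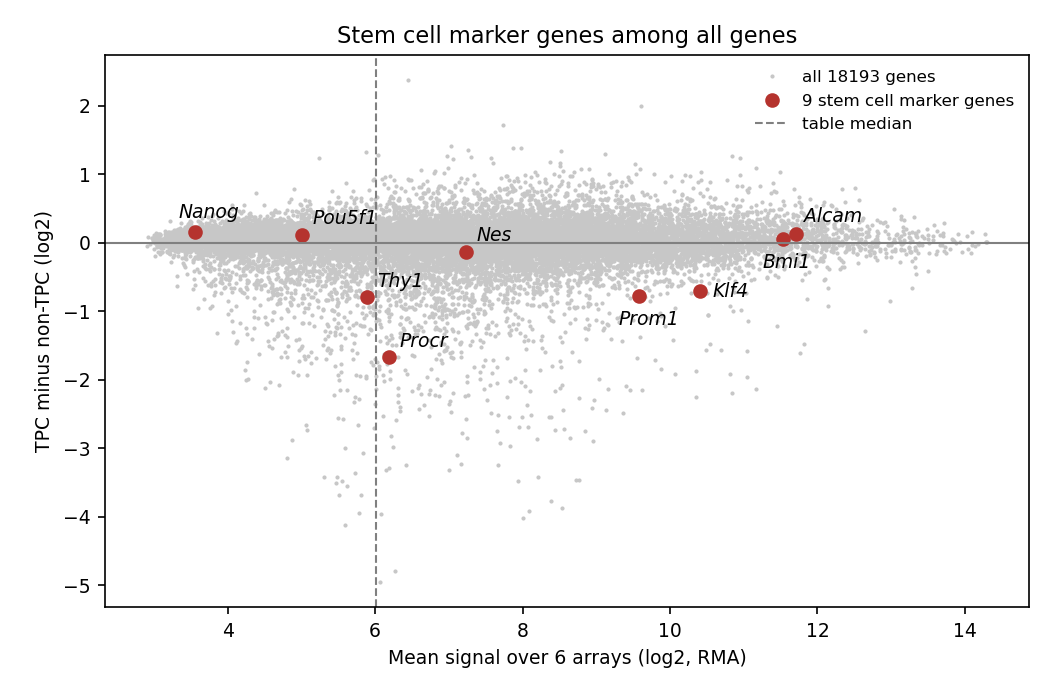
Difference between TPCs and non-TPCs (log2) against mean signal over 6 arrays (log2, RMA) for 18193 genes in grey, with the 9 stem cell marker genes in red and the table median as a dashed line. Procr, Thy1, Prom1 and Klf4 lie below 0 among the wider lower tail of the cloud, and the other 5 lie between -0.13 and 0.15.

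The start regions of the 3 genes above the table median that were lower in TPCs of every mouse are shown, since transcription factors such as the KLF family act at such regions. Procr is among these genes although only its non-TPC arrays exceeded the table median. The regions are 300-base windows around the annotated start from RefSeq on build GRCm38.p6, which held a window for 8 of the 10 genes. That of Klf4 is chr4:55532426-55532725 on the minus strand, that of Procr chr2:155750967-155751266 on the plus strand, and that of Prom1, the more upstream of its windows, chr5:44101687-44101986 on the minus strand. Capitals mark CACCC or its reverse complement GGGTG, a core of sites that KLF proteins bind. They also mark CACGTG, the E-box that MYC proteins bind and that reads the same on both strands. These 2 motifs share no base in the windows shown.
Klf4: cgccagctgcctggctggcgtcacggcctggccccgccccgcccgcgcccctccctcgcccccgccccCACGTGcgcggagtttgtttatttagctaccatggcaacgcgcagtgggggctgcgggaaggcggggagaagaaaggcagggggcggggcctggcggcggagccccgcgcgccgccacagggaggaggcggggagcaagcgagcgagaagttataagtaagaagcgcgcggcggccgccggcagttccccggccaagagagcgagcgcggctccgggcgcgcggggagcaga
Procr: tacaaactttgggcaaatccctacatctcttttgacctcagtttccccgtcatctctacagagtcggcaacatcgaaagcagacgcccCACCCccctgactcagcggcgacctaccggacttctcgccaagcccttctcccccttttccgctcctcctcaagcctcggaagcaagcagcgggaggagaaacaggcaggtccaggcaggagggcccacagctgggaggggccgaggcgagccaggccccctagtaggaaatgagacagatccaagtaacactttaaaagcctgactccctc
Prom1: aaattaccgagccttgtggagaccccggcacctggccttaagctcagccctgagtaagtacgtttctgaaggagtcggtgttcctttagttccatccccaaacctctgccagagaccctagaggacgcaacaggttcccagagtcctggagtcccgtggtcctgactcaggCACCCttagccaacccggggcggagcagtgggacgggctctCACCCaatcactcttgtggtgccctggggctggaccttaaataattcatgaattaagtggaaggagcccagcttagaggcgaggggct
The Klf4 window held 1 E-box and 0 KLF cores, the Procr window 1 KLF core and the Prom1 window 2. No other form of a KLF site was searched, so 0 means only that CACCC and GGGTG were absent. A KLF core was present in 57.5% of all 32851 windows of this length and an E-box in 7.15%. A match describes these letters and is not evidence of binding.

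Markers of other cell types were set beside these genes, since a sorted fraction can hold normal lung and stromal cells. Of 10 fibroblast markers, 7 were lower in TPCs of all 3 mice and 0 passed limma. Their mean signal was 5.87, 5.74 and 5.82 in TPCs of mice 1127, 920 and 0107, and 9.34, 6.91 and 6.70 in non-TPCs. This is the order of Procr in the non-TPCs, with mouse 1127 far above the other mice, and over the 6 arrays Procr and the fibroblast mean correlated at 0.99 and Thy1 and that mean at 0.96. The 10 fibroblast markers had a median difference of -1.79, with -2.94, -0.50 and -0.36 in mice 1127, 920 and 0107. The collagen gene Col3a1 had the largest difference of the list, with 3.87 ± 0.16 in TPCs against 8.66 ± 3.38 in non-TPCs (SD, n = 3 each). Col1a1 differed by -0.35 and Fbln1 by 0.18. Of 9 markers of pericytes and smooth muscle, 4 were lower in TPCs of all 3 mice and 0 passed, with a median difference of -0.11. Rgs5, Acta2 and Tagln had the largest differences (-3.36, -1.45 and -0.79), while Cspg4, Myh11, Des and Notch3 were higher in TPCs of mouse 1127. The list had means of 5.47 to 5.55 in TPCs and 5.74 to 6.73 in non-TPCs, and this mean correlated with Procr at 0.98 and with Thy1 at 0.96. The ciliated cell mean correlated with them at 0.87 and 0.90. These correlations rest on the same 6 arrays and include the difference between the fractions. Procr, Thy1 and the means of these lists were all highest in the non-TPC array of mouse 1127. How far the correlations rest on that array was not tested, nor was the part of these cell types in the values of Procr and Thy1.

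Endothelium is another known source of Procr. Its 12 marker genes averaged 5.64 to 5.68 in TPCs, and 6.57, 5.75 and 7.19 in non-TPCs of mice 1127, 920 and 0107, so that mouse 0107 was highest, while Procr was highest in mouse 1127. Of these markers 6 were lower in TPCs of all 3 mice and 0 passed, and the correlation with Procr was 0.55. The endothelial mean correlated more closely with Nes, at 0.76, which was also highest in mouse 0107's non-TPC array. With Alcam, which was lowest in that array, it correlated at -0.71. T and NK cell markers, which bear on Thy1, averaged 5.70 to 5.78 in TPCs and 5.61 to 5.83 in non-TPCs, with a median difference of 0.03. Their mean correlated with Thy1 at -0.71 over the 6 arrays. Of the 9 measured, 4 lay above the table median, the brightest being Zap70, at 8.16 ± 0.11 in TPCs against 8.03 ± 0.20 in non-TPCs. The T cell receptor subunit genes Cd3d and Cd3g lay below the table median and Cd3e just above it, at 6.39 ± 0.04 in TPCs against 6.21 ± 0.16 in non-TPCs. The part of endothelium in the values of Procr, Nes and Alcam, and of T cells in those of Thy1, was not tested.

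Klf4 moved with other lists. Its correlation over the 6 arrays was 0.98 with the mean of 8 leukocyte markers and 0.95 with that of 6 club cell markers. It was 0.88 with the mean of 7 alveolar type 2 markers and 0.81 with that of 6 mesothelial markers. Klf4 and these means were all lower in TPCs of each mouse, so the correlations include the difference between the fractions. The leukocyte mean also correlated with Procr at 0.79 and with Nanog at -0.92. Other lists gave similar values. Procr correlated at 0.79 with the mesothelial, 0.71 with the club cell and 0.70 with the alveolar type 2 mean. Nanog correlated with the club cell, alveolar type 2, pericyte, fibroblast and mesothelial means at -0.92 to -0.88. The leukocyte mean was 6.80 to 7.50 in TPCs and 7.55 to 8.50 in non-TPCs. Of the 8 markers, 6 were lower in TPCs of all 3 mice and 1, Coro1a, was higher in all 3. Laptm5 differed by 0.02 on average. Of these markers 0 passed limma, and 1, Lcp1, passed it with the replicate block. The club cell mean was 8.97 to 10.01 in TPCs and 10.14 to 11.86 in non-TPCs, with 6 of 6 lower in all mice, 0 past limma and 1, Bpifa1, past it with the replicate block. The alveolar type 2 mean was 7.39 to 7.55 in TPCs and 8.65 to 9.25 in non-TPCs, with 6 of 7 lower in all mice and 2, Sftpa1 and Sftpc, past limma, of which Sftpa1 alone passed with the replicate block. Against the mean of the neuroendocrine markers the correlation of Klf4 was -0.80. Mesothelial markers averaged 4.66 to 4.92 in TPCs and 5.95 to 6.11 in non-TPCs, with 1 of 6, Gpm6a, past limma. Ciliated cell markers averaged 6.18 to 6.25 in TPCs and 6.12 to 6.62 in non-TPCs, with 0 of 8 past it. Prom1 had correlations of 0.79 with the pericyte mean and 0.77 with the fibroblast mean, and 0.66 with the ciliated and with the club cell mean. The part of these cell types in the values of Klf4 and Prom1 was not tested.

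**Figure D4:**
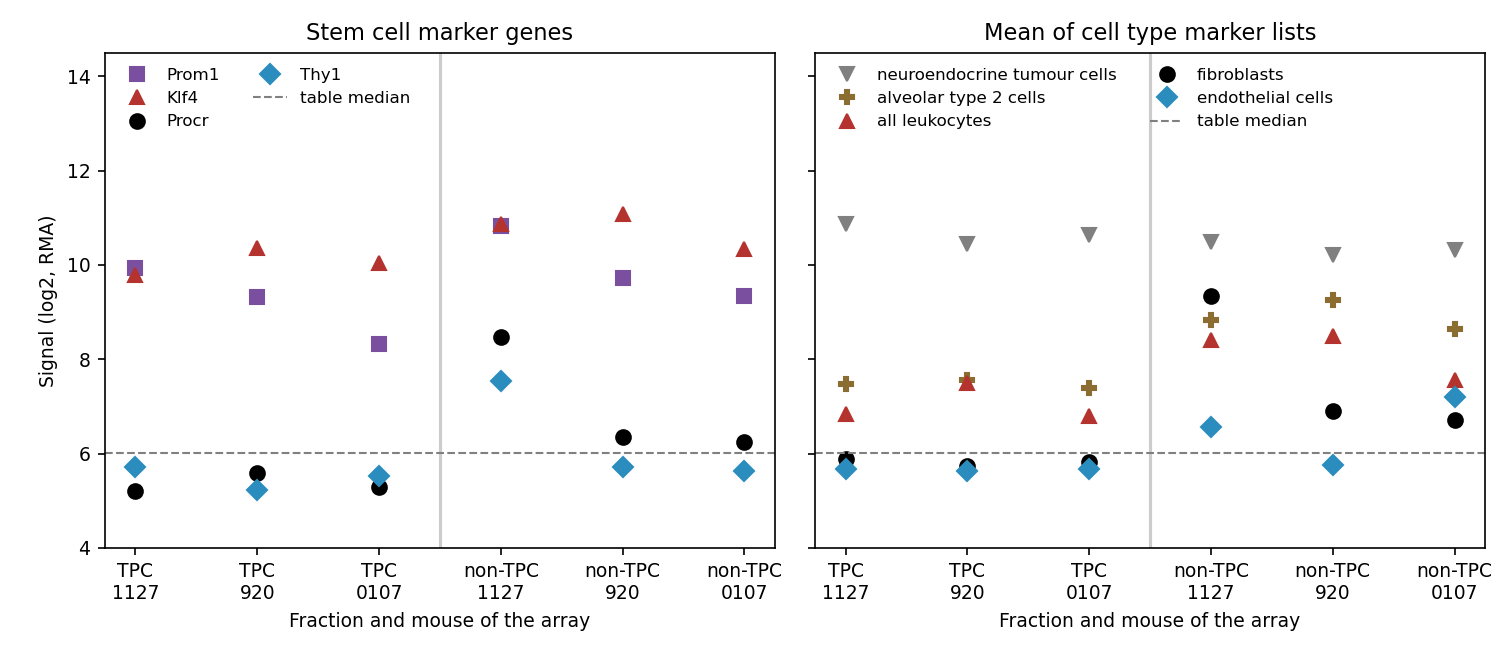
Signal (log2, RMA) in the 6 arrays, TPCs left of non-TPCs, of 4 stem cell marker genes on the left and of the mean of 5 cell type marker lists on the right, with the table median dashed. Procr, Thy1, Prom1 and the fibroblast mean are highest in the non-TPC array of mouse 1127, while the endothelial mean is highest in that of mouse 0107.

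Genes that work with these markers were read from lists that include no member. Of 20 genes of the pluripotency network, 8 were above the table median and 0 passed limma, with a median difference of 0.09, 1 gene lower and 4 higher in TPCs of all 3 mice. Sox2, a partner of OCT4 that is also a lineage factor of this tumour type, stood at 10.75 in TPCs against 10.44 in non-TPCs, and differed by 0.25, 0.40 and 0.27 in mice 1127, 920 and 0107 (limma adjusted p = 0.751). Sall4, a zinc finger factor of embryonic stem cells, differed by 0.63, and Klf2, which substitutes for Klf4 in embryonic stem cells and is high in endothelium, by -0.65. Zfp42 and Tdgf1, read as signs of the pluripotent state, had signals of 3.42 and 3.95 in TPCs, against 3.42 and 3.94 in non-TPCs, well below the table median.

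Of 26 other markers of adult stem cells, 0 passed limma, with 6 lower and 3 higher in TPCs of all 3 mice and a median difference of -0.07. Dclk1, a kinase that marks tuft cells, averaged 5.46 in TPCs and 7.99 in non-TPCs, and differed by -2.08, -1.69 and -3.82 within mice 1127, 920 and 0107 (limma adjusted p = 0.275). Abcg2, the efflux pump of the side population, differed by -2.32 (adjusted p = 0.436) and Cd34, a sialomucin of blood progenitors and endothelium, by -2.99 (adjusted p = 0.548). Lgr5, the intestinal stem cell marker, was below the table median and differed by 0.04. Msi2, an RNA-binding protein of blood and neural stem cells, had a bright signal of 10.54 in TPCs against 10.18 in non-TPCs, and differed by 0.25, 0.41 and 0.42 (limma adjusted p = 0.631).

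Around Bmi1, 12 of 14 other PRC1 genes were above the table median and 0 passed, with 2 lower and 3 higher in TPCs of all 3 mice and a median difference of 0.13. Phc3, a polyhomeotic subunit, differed by -0.40, Pcgf2, the closest relative of Bmi1, by 0.27 and Cbx6, a chromodomain reader, by 0.33. Of 12 other KLF genes 0 passed, 2 were lower and 4 higher in TPCs of all 3 mice, and their median difference was 0.14. Klf9, a factor induced by glucocorticoids, showed the order of Klf4, with -1.12, -0.82 and -0.25 in mice 1127, 920 and 0107 (limma adjusted p = 0.587), while Klf10 and Klf11, targets of TGF-beta, differed by 0.62 and 0.53. Klf5, a factor of epithelial progenitors that stands in both this list and the pluripotency list, differed by -0.06, 0.08 and 2.69, so its mean of 0.91 rests on mouse 0107.

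Around Procr, 4 of 9 genes of the protein C pathway were lower in TPCs of all 3 mice, 1 was higher, 0 passed and the median difference was -0.33. Pros1, the cofactor protein S, differed by -1.15, -0.78 and -0.90 in mice 1127, 920 and 0107 (limma adjusted p = 0.574). Thbd, which encodes thrombomodulin and lies on endothelium with Procr, differed by -2.46, -0.26 and -3.51, with the smallest value in mouse 920. Proc, the ligand, lay below the table median, with 4.93 in TPCs against 5.02 in non-TPCs. Tfpi, an inhibitor of coagulation, differed by -0.42.

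Of 9 other intermediate filament genes 0 passed, with a median difference of -0.02. Vim, the partner of nestin, averaged 7.00 in TPCs and 10.46 in non-TPCs, and differed by -4.02, -2.41 and -3.97 within mice 1127, 920 and 0107 (limma adjusted p = 0.0867), where Nes differed by -0.13 on average. Nefm and Ina, filament genes of neurons, differed by -0.87 and 0.28. Of 10 ligands and partners of Thy1 and Alcam 0 passed, with a median difference of -0.015. Adgre5, a receptor that binds Thy1, differed by -1.79, -0.67 and -2.46, and Itgb2, a subunit of a leukocyte integrin that binds Thy1, by -1.04. L1cam, a neural adhesion molecule, differed by 0.23. Cd6, the ligand of Alcam on T cells, lay below the table median, with 5.48 in TPCs against 5.31 in non-TPCs. Of 16 genes of the Ly6 and uPAR family 0 passed, with 5 lower and 1 higher in TPCs of all 3 mice and a median of -0.11. Ly6d differed by -1.07, -1.15 and -0.68 (limma adjusted p = 0.384), Ly6g6c by -0.30 and Gpihbp1, a lipase transporter of capillaries, by -1.67.

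For the 6 genes above the table median, the 3 named genes with the most similar profile over the 6 arrays were taken out of 11490 by Pearson correlation, as a description of 6 points. Procr exceeded that median only in its non-TPC arrays. It was closest to Il1r2, a decoy receptor for interleukin 1 (0.997), the elastic fibre gene Fbln5 (0.995) and Inmt, an amine methyltransferase (0.991). Klf4 was closest to Serpinb11 (0.997), Rad18 (0.993) and the transcription factor gene Gata6 (0.993). Prom1 was closest to Arfip2 (0.991), Iqgap3 (0.985) and Man1a2 (0.985), and Bmi1 to Qtrt2 (0.990), Mybl1 (0.984) and Depdc1a (0.980). Alcam was closest to Hcrtr1 (0.998), Brd2 (0.995) and Epb41l5 (0.995), and Nes to Rer1 (0.998), Umps (0.996) and Gkap1 (0.992). With 6 arrays such values are common: between 91 genes, for Bmi1, and 533 genes, for Nes, correlated above 0.9.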

How the data were processed

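Total RNA of sorted cells was measured on 1-colour Affymetrix arrays with biotin-labelled targets, per the labels' protocols. The labels name a whole-transcript labelling kit, while the probe annotation is that of a 3' expression array, and how this bears on the signals was not tested. The deposited log2 signals per probe set come from RMA, as the submitters' processing notes name it, which corrects background, normalises arrays by quantiles and summarises probes, and can compress differences of dim probe sets. The sources used here state neither its version nor the log base, and log2 was inferred from the range of the values (2.70 to 14.81, array medians 6.00 to 6.04). Arrays carry no depth, and 3 per fraction limit the precision.

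Of 45101 probe sets, 64 controls were left out, 34945 had 1 listed symbol and 932 had several, which named no gene. Symbols were updated through Entrez identifiers to RefSeq GRCm38.p6 (18032 of 18193 genes). Each gene was read from its brightest probe set over the 6 arrays. Genes, and probe sets separately, were fitted in R 4.3.3 by limma 3.58.1 (two-sided, lmFit and eBayes, fraction as the only term) with Benjamini-Hochberg adjustment over all of them, at a threshold of 0.05. The code was tested on simulated data. Both fractions of a mouse come from 1 animal, and deviations from the fraction means correlated at 0.30, 0.46 and 0.36 within mice 1127, 920 and 0107, so a replicate block for the mouse was also fitted, which leaves 2 residual degrees of freedom against 4. The labels give 1 sample per fraction and mouse. The p-values of the main fit set the mean difference against the spread of these 3 mice within each fraction and ignore the pairing. Those of the replicate block set it against the spread of the differences within mice.

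All 10 members are named by rule, with every probe set. For each further list the members with the smallest p (up to 3) are named, and for each member above the table median the 3 most similar genes. Outside that rule, Zfp42, Tdgf1, Lgr5, Msi2, Klf5, Proc, Cd6, Col3a1, Col1a1, Fbln1, Cd3d, Cd3e, Cd3g, Zap70, Cspg4, Myh11, Des, Notch3, Rgs5, Acta2, Tagln, Lcp1, Coro1a, Laptm5, Bpifa1, Sftpa1, Sftpc and Gpm6a were picked once their values were known. The members and the lists were chosen with earlier results of these data known.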

Additional observations from a re-analysis of the deposited data

How the results depend on the processing

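None of the 9 genes and none of the 17 probe sets passed under any of the alternatives run: the replicate block, the mouse as a random block, a filter on the table median (which leaves 6 of the genes), median-centred arrays, an intensity trend, the median over a gene's probe sets (genes only), and leaving out each mouse or each array. Of 132 differences of member genes under these alternatives 126 kept their sign, and the 6 that did not all came from leaving out arrays: Bmi1 (-0.052 to 0.15 over the leave-out fits, below 0 without mouse 920 or its TPC array), Nes (-0.31 to 0.14) and Alcam (-0.34 to 0.40), both of which changed sign without mouse 0107 or its non-TPC array. The smallest limma adjusted p of a member gene was 0.182, for Klf4 without mouse 0107's non-TPC array, and the Klf4 difference ranged from -0.92 to -0.52. The number of all genes past the threshold, 11, was 39 with the mouse as a random block, 3 with the median over probe sets and 0 to 84 when a mouse or array was left out (0 without mouse 1127, 30 and 84 without the non-TPC arrays of mice 920 and 0107); the cause was not tested. It was 13 with the replicate block, of which 6 were among the 11, and that fit changed no call of a member. Dim signal limits Pou5f1, Nanog and Thy1, and also Procr in TPCs, where all 3 arrays lay below the table median.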
